A study of Homo sapiens with 16 samples.

Results

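Heat shock chaperones outside the endoplasmic reticulum were followed in LNCaP, an androgen-dependent line derived from human prostate cancer. The set holds 10 genes of the 62754 in the count table: HSF1, the transcription factor of the heat shock response, the cytosolic chaperone genes HSPA1A, HSPA1B, HSPA8, HSPH1, HSP90AA1, HSP90AB1 and DNAJB1, and the mitochondrial chaperonin genes HSPD1 and HSPE1. They were chosen by function, as HSF1 and its known chaperone targets, but with earlier results of these data known. The groups were p53 KO cells given GCN2iB (p53 KO GCN2iB), p53 KO cells given vehicle (p53 KO vehicle), wild-type cells given GCN2iB (WT GCN2iB) and wild-type cells given vehicle (WT vehicle), with 4 libraries in each of the 4 groups and 16 in all. GCN2iB is an inhibitor of GCN2, a kinase that slows translation when amino acids run short, and was used at 5 µM for 48 h with DMSO as the vehicle, from 350000 cells plated a day before. The p53 KO cells were made by CRISPR editing, and the labels do not say whether they are 1 clone or a pool. The series asks how loss of p53 acts together with GCN2 inhibition on transcript levels.

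Chaperones of the HSP70 and HSP90 families bind unfolded or partly folded proteins and release them in cycles of ATP hydrolysis, helped by J proteins and exchange factors. When unfolded proteins build up, HSF1 forms trimers, binds heat shock elements in the promoters of chaperone genes and raises their transcription. HSP90 keeps the androgen receptor and other steroid receptors in a form that can bind hormone, which is why this family is much studied in prostate cancer.

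Total counts per library ranged from 17418072 to 39915685, with p53 KO GCN2iB replicate 3 and WT vehicle replicate 1 the shallowest. Levels are read counts scaled to the TMM-adjusted library total (CPM), as mean ± SD over 4 libraries, and changes are log2 ratios with their standard error (SE). A gene is said to rise or fall where edgeR's quasi-likelihood test gave a p-value under 0.05 after Benjamini-Hochberg adjustment over the 18549 genes tested. All 10 members passed the filter on low counts. The labels do not say whether replicates were separate cultures, so p-values measure only the spread between these libraries, which may be technical. CPM is a share of the library, so fewer transcripts per cell and a larger total of other RNA cannot be told apart. As a check of the labels, CDKN1A, the p53 target that encodes p21, stood at 42.9 ± 5.97 CPM in p53 KO GCN2iB, 37.5 ± 3.73 CPM in p53 KO vehicle, 464 ± 60.1 CPM in WT GCN2iB and 275 ± 21.1 CPM in WT vehicle. Among the WT GCN2iB libraries replicate 4 stood apart at 375 CPM, the other 3 lying between 483 and 501 CPM, so counts of members and of the chaperone lists printed below that use this group are also given without it where they change. CHAC1, a target of the GCN2 pathway, averaged 3.40 CPM in p53 KO GCN2iB against 23.5 CPM in p53 KO vehicle, and 2.08 CPM in WT GCN2iB against 20.0 CPM in WT vehicle. All 11 LNCaP identity markers examined were detected in every group, with a summed level, in CPM of the unscaled total, of 5734 to 5909 in p53 KO GCN2iB, 6742 to 6838 in p53 KO vehicle, 6114 to 6181 in WT GCN2iB and 6974 to 7177 in WT vehicle. The 15 markers of stromal, endothelial and blood cells summed to 31.3 to 48.2 CPM over all libraries.

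Together the 10 genes held 1.04% ± 0.0653 of all counts in p53 KO GCN2iB, 0.969% ± 0.0231 in p53 KO vehicle, 0.955% ± 0.0518 in WT GCN2iB and 0.962% ± 0.0303 in WT vehicle (SD, n = 4 each). The ranges of these shares overlapped between p53 KO GCN2iB and each other group. HSP90AB1, HSPA8, HSP90AA1 and HSPD1 held 93.5% of the members' counts, with a range of 92.0% to 94.7% over the 16 libraries. Per kilobase of exon in WT vehicle, HSP90AB1 was highest at 937 CPM per kb, followed by HSPA8 at 543, HSP90AA1 at 417 and HSPD1 at 349.5 CPM per kb. The next levels were far lower, with DNAJB1 at 47.0, HSPA1B at 32.6, HSF1 at 22.7, HSPH1 at 17.7, HSPE1 at 13.9 and HSPA1A at 0.973 CPM per kb. Neighbours in this order overlapped between libraries only for HSF1 with HSPH1 and HSPH1 with HSPE1. By these counts the stress-induced HSP70 genes HSPA1B and HSPA1A lay far below HSPA8, their constitutive counterpart. Their place in the order is uncertain, because their reads are hard to assign, as described next.

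The values of 3 members rest on reads that are hard to assign. HSPA1A and HSPA1B are neighbouring single-exon genes for near-identical copies of the stress-induced HSP70, and 71.2% of the 75-base windows of HSPA1A also occur in HSPA1B and 70.1% of those of HSPA1B in HSPA1A. HSPA1A received 1258 counts over all libraries and HSPA1B 50816, and how the authors' counting treated reads that match both is not given in the sources used here. HSPE1 encodes the HSP10 lid of the mitochondrial chaperonin and shares a bidirectional promoter with HSPD1, its HSP60 barrel. HSPE1 received 16421 counts against 850770 for HSPD1. In GENCODE release 29, 14.2% of its exon bases lie opposite HSPD1 exons and 9.71% lie in the readthrough gene HSPE1-MOB4, which had 0 counts. The 26 HSPE1 pseudogenes in the table held 15.6% as many counts as HSPE1 itself. HSPA1A, HSPA1B and HSPE1 are therefore reported as uncertain, with the sum of both HSP70 copies given beside HSPA1B, and whether the counting used strand is not given. Smaller overlaps with genes on the opposite strand hold for DNAJB1 (5.75% of exon bases, with TECR), HSP90AA1 (3.75%, with WDR20) and HSF1 (2.62%, with DGAT1). A larger overlap on the same strand holds for HSPA1B, as 36.5% of its exon lies in AL671762.1, which had 0 counts. How reads in that part were assigned is not given in the sources used here.

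The promoters were searched for the sequence that HSF1 binds. A heat shock element is built of inverted GAA units, and the 250 bases before each RefSeq start site (GRCh38.p14) were searched for adjacent pairs, GAANNTTC or TTCNNGAA. Both strings are their own reverse complement, so each match counts for both strands. Either pair occurred in 11.6% of 35116 human promoters of the same length, and an overlapping run of both pairs, which makes 3 units in a row, in 0.441%. RefSeq start sites were found for all members but HSF1. HSPA1A and HSPA1B had 1 pair each and HSPA8 had 4 pairs that formed 2 runs of 3 units. DNAJB1 and HSP90AB1 have 3 start sites each, and HSP90AA1 and HSPD1 have 2 each, with pairs before 1 site of each gene and 0 before its others. At that site DNAJB1 had 2 pairs, HSP90AB1 had 4 pairs in 2 runs, HSP90AA1 had 3 pairs with 1 run and HSPD1 had 3 pairs that formed 2 overlapping runs, while no match lay in the windows of HSPH1 and HSPE1. The HSPD1 pairs, within bases 197500061 to 197500090 of chromosome 2, also lie before the HSPE1 start site at 197500379. They fall outside the 250 bases searched before that RefSeq site. GENCODE starts HSPE1 at 197499994, so these pairs lie inside the gene by that annotation. Whether HSPE1 has a match thus depends on the start site and the window taken. A match describes these letters only, and binding was not measured. The part of the promoter outside annotated exons is printed for HSPA1B and DNAJB1, which rose in both genotypes, for the near copy HSPA1A and for HSP90AB1, the member highest per kb, with the pairs in capitals.
HSPA1A, chr6:31815293-31815463, + strand: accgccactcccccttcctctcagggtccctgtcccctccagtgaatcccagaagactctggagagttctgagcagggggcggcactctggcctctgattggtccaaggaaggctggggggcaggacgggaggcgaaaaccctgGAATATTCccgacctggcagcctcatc
HSPA1B, chr6:31827488-31827734, + strand: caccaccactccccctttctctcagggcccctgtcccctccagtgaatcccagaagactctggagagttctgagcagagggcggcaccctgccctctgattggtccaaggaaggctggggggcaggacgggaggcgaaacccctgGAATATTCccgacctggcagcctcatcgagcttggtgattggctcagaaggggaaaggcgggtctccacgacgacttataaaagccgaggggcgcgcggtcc
DNAJB1, chr19:14518421-14518647, - strand: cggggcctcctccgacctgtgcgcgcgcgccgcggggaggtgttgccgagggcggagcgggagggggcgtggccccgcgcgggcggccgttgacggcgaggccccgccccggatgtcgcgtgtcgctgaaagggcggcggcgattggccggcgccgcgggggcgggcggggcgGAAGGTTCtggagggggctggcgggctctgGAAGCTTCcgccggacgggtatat
HSP90AB1, chr6:44247693-44247865, + strand: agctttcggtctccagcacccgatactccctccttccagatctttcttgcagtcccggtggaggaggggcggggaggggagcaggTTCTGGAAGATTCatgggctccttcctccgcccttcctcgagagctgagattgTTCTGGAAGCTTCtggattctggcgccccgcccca
The promoters of HSPA1A and HSPA1B were 93.6% identical over the 250 bases before the start site, and the pair GAANNTTC stood 106 bases before the start of HSPA1A and 105 bases before that of HSPA1B. For HSPA8, HSP90AA1 and HSPD1 only the 30 bases around the pairs are shown, again in capitals.
HSPA8, chr11:123062345-123062374, - strand: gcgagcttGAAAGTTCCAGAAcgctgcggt
HSPA8, chr11:123062170-123062199, - strand: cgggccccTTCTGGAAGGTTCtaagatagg
HSP90AA1, chr14:102087111-102087140, - strand: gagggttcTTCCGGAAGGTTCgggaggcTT
HSP90AA1, chr14:102087094-102087123, - strand: GTTCgggaggcTTCTGGAAaaagcgccgcg
HSPD1, chr2:197500061-197500090, - strand: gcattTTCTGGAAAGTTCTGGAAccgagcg

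GCN2iB raised 6 of the 10 genes in p53 KO cells and 3 of the 10 in WT cells, and lowered none in either. In p53 KO cells HSF1, HSPA1B, DNAJB1, HSP90AB1, HSPD1 and HSPE1 rose, and in WT cells HSF1, HSPA1B and DNAJB1 rose. Among all 18549 genes, 11.4% rose and 8.71% fell in p53 KO cells (20.1% called), and 11.6% rose and 13.6% fell in WT cells (25.2% called). The 3 of 10 members called in WT cells are thus near the share of all genes called in either direction, while all 3 rose. The median log2 ratio of the members was 0.23 in p53 KO cells, where that of all tested genes was -0.01, and 0.15 in WT cells, where that of all tested genes was -0.03. All 10 members had a positive log2 ratio in p53 KO cells and 9 in WT cells, HSPA8 being the exception. With library totals as the only scaling, all called genes in p53 KO cells split into 1401 higher and 2672 lower, against 2119 higher and 1615 lower in the reported fit, and 4 of the 10 members rose while none fell. Without WT GCN2iB replicate 4, 3 members rose in WT cells, where 19.3% of all genes were called. The plot of levels by library shows each value.

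**Figure D1:**
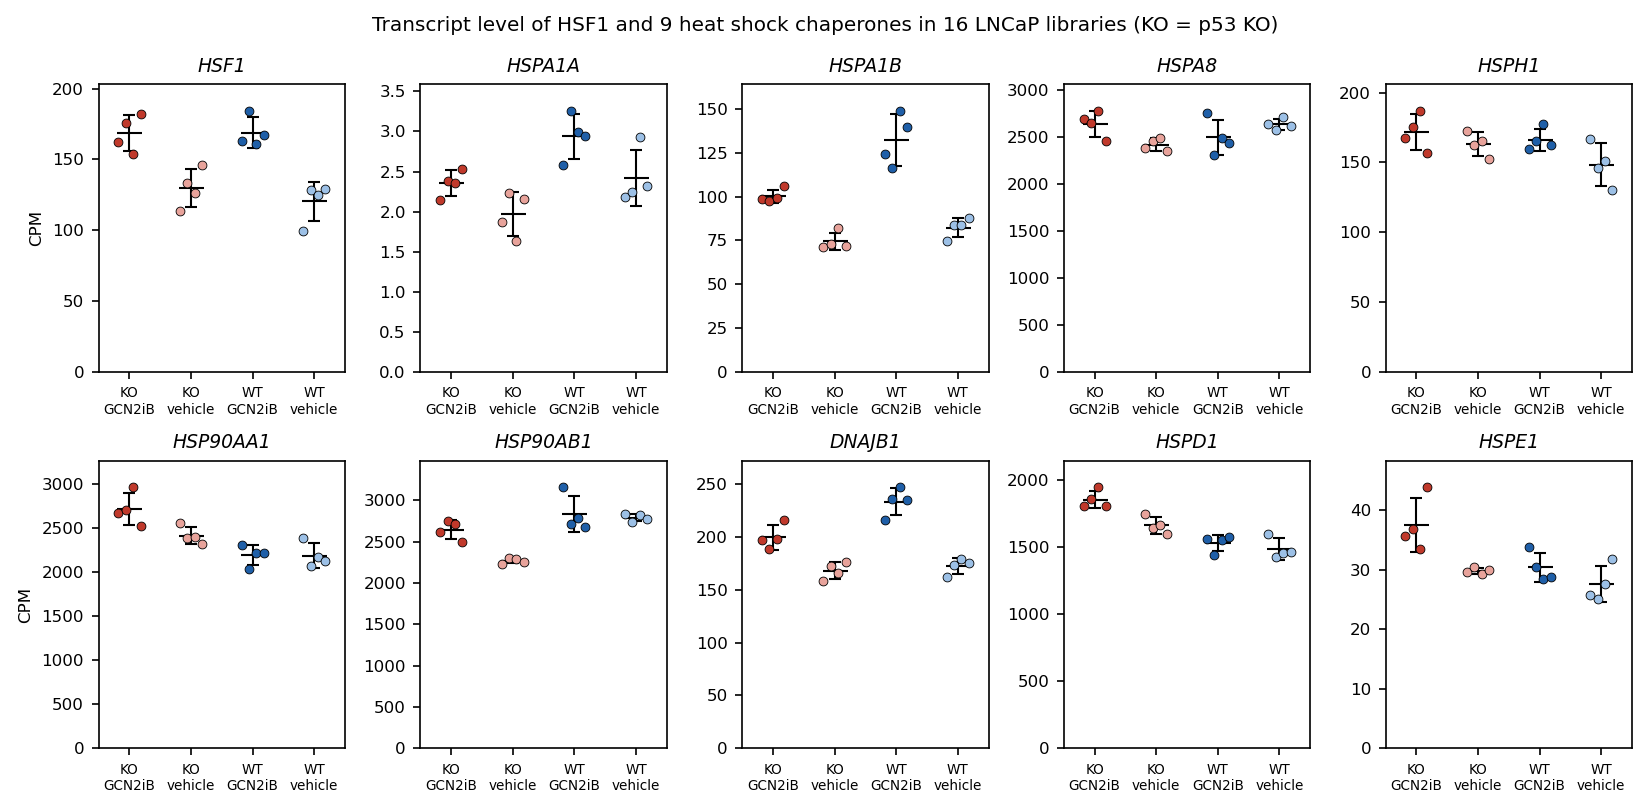
Level of each gene in CPM (y axis, from 0) in the 4 libraries of each group, with the mean and SD as bars and replicates 1 to 4 drawn left to right within a group. The 4 GCN2iB libraries of HSPA1B lie between 97.2 and 106 CPM in p53 KO cells, above 71.4 to 81.8 CPM under vehicle, and HSP90AB1 is lowest in p53 KO vehicle.

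HSF1 (ENSG00000185122) encodes the activator of the response. Its level was 163, 176, 154 and 182 CPM in the p53 KO GCN2iB libraries, against 113, 133, 126 and 146 CPM in p53 KO vehicle. The WT GCN2iB libraries held 163, 185, 161 and 167 CPM, against 99.5, 128, 125 and 129 CPM in WT vehicle. In both genotypes every GCN2iB library lay above every vehicle library. The rise was 1.30-fold in p53 KO cells (log2 0.38, SE 0.08, adjusted p = 0.00237) and 1.40-fold in WT cells (log2 0.49, SE 0.08, adjusted p = 0.000185). Under GCN2iB the genotypes stood at 169 CPM each, a log2 ratio of -0.00 with a 95% interval from -0.16 to 0.16. Across the 78 other tested genes within 1 Mb of HSF1, the median log2 ratio with GCN2iB was 0.02 in p53 KO cells and 0.19 in WT cells. Of these, 14 rose and 4 fell in p53 KO cells, and 25 rose and 3 fell in WT cells. Among all genes 11.4% rose in p53 KO cells and 11.6% in WT cells. The part of the region in the HSF1 ratios was not tested. HSF1 activity is set mainly by trimer formation and modification of the protein, which transcript levels do not measure.

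HSPA1B (ENSG00000204388, GRCh38 chromosome 6, 31827735 to 31830255) encodes the stress-induced HSP70 and showed the largest log2 ratios of the 10 genes under GCN2iB. It stood at 98.6, 97.2, 99.2 and 106 CPM in p53 KO GCN2iB, against 71.4, 72.8, 81.8 and 71.9 CPM in p53 KO vehicle. WT GCN2iB libraries reached 124, 116, 149 and 139.7 CPM, against 74.6, 83.6, 83.5 and 87.5 CPM in WT vehicle. The vehicle libraries of both genotypes overlapped, while the WT GCN2iB libraries lay above all 12 others. HSPA1B rose 1.34-fold in p53 KO cells (log2 0.43, SE 0.07, adjusted p = 0.000241) and 1.61-fold in WT cells (log2 0.68, SE 0.07, adjusted p = 5.92e-07). Under GCN2iB it was lower in p53 KO cells than in WT cells (log2 -0.40, SE 0.07, adjusted p = 0.000296). Under vehicle the log2 ratio of p53 KO to WT was -0.15 (SE 0.07, adjusted p = 0.175). Its near copy HSPA1A was at 2.15 to 2.53 CPM in p53 KO GCN2iB, 1.64 to 2.23 in p53 KO vehicle, 2.58 to 3.26 in WT GCN2iB and 2.18 to 2.93 in WT vehicle, and passed no test. When the counts of both copies were added, the sum rose in p53 KO cells (log2 0.42) and in WT cells (log2 0.67), and was lower in p53 KO than in WT cells under GCN2iB (log2 -0.40). The 70 other tested genes within 1 Mb of HSPA1B had median log2 ratios with GCN2iB of 0.01 in p53 KO cells and 0.06 in WT cells.

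DNAJB1 (ENSG00000132002, chromosome 19, 14514770 to 14529770) encodes HSP40, the J protein that stimulates the ATPase of HSP70. Its libraries held 197, 188, 198 and 216 CPM in p53 KO GCN2iB, against 158, 172, 166 and 176 CPM in p53 KO vehicle. The WT GCN2iB libraries held 216, 236, 247 and 235 CPM, against 162, 173, 179.5 and 175 CPM in WT vehicle. GCN2iB and vehicle did not overlap in either genotype. The rise was 1.19-fold in p53 KO cells (log2 0.25, SE 0.06, adjusted p = 0.00482) and 1.35-fold in WT cells (log2 0.44, SE 0.06, adjusted p = 1.48e-05). Like HSPA1B, DNAJB1 was lower in p53 KO than in WT cells under GCN2iB (log2 -0.23, SE 0.06, adjusted p = 0.00791) and not called under vehicle (log2 -0.04, adjusted p = 0.727). The 40 other tested genes within 1 Mb of DNAJB1 had median log2 ratios with GCN2iB of 0.07 in p53 KO cells and 0.16 in WT cells. In p53 KO cells 7 of them rose and 2 fell, and in WT cells 9 rose and 2 fell, where 11.4% and 11.6% of all genes rose. The part of this region was not tested either.

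HSPA8 (ENSG00000109971) encodes HSC70, the constitutive HSP70, and HSPH1 (ENSG00000120694) encodes HSP110, a nucleotide exchange factor for HSP70. Neither passed the test in any comparison. HSPA8 stood at 2687, 2649, 2779 and 2451 CPM in p53 KO GCN2iB, against 2377, 2455, 2489 and 2347 CPM in p53 KO vehicle (log2 0.13, SE 0.06, adjusted p = 0.123). Its WT GCN2iB levels were 2750.1, 2309.6, 2492 and 2437 CPM, against 2633, 2575, 2709.7 and 2612 CPM in WT vehicle (log2 -0.08, SE 0.06, adjusted p = 0.364). WT GCN2iB replicate 1 was the highest WT library and the other 3 of its group lay below all WT vehicle libraries. HSPH1 ranged from 157 to 187 CPM in p53 KO GCN2iB, 152 to 173 in p53 KO vehicle, 159 to 177 in WT GCN2iB and 129.9 to 167 in WT vehicle. Its log2 ratio under GCN2iB was 0.07 in p53 KO cells (95% interval -0.07 to 0.21) and 0.16 in WT cells (0.02 to 0.30, adjusted p = 0.0957). Without WT vehicle replicate 1, the highest of its group, the HSPH1 ratio in WT cells was 0.24 with an adjusted p of 0.0194.

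HSP90 is made from a constitutive and an inducible gene. HSP90AB1 (ENSG00000096384, chromosome 6, 44246166 to 44253888) encodes the constitutive form, HSP90β. It stood at 2622, 2754, 2709 and 2497 CPM in p53 KO GCN2iB, against 2232, 2298, 2292 and 2258 CPM in p53 KO vehicle. In WT GCN2iB it was at 3160.2, 2716, 2782 and 2680.0 CPM, against 2835, 2739, 2818 and 2774 CPM in WT vehicle. The p53 KO vehicle libraries lay below all 12 others. HSP90AB1 rose 1.17-fold with GCN2iB in p53 KO cells (log2 0.22, SE 0.06, adjusted p = 0.00714), while in WT cells the log2 ratio was 0.02 (95% interval -0.09 to 0.13, adjusted p = 0.816). With library totals as the only scaling the rise in p53 KO cells had an adjusted p of 0.0671. HSP90AA1 (ENSG00000080824, chromosome 14, 102080738 to 102139699) encodes the inducible form, HSP90α. It held 2675, 2711, 2968 and 2522 CPM in p53 KO GCN2iB, against 2558, 2392, 2404 and 2319 CPM in p53 KO vehicle (log2 0.17, SE 0.06, adjusted p = 0.0558). Under WT GCN2iB the libraries held 2310.0, 2036, 2217 and 2224 CPM, against 2388, 2069.6, 2177 and 2127 CPM in WT vehicle (log2 0.00, 95% interval -0.12 to 0.13, adjusted p = 0.969). The ratio in p53 KO cells passed the test when p53 KO vehicle replicate 1 was left out (adjusted p = 0.0418) or p53 KO GCN2iB replicate 4 (adjusted p = 0.0224). Counts of HSP90AA1 were 103% of those of HSP90AB1 in p53 KO GCN2iB (98.4% to 110% over libraries) and 107% in p53 KO vehicle (103% to 115%), against 77.7% in WT GCN2iB (73.1% to 83.0%) and 78.4% in WT vehicle (75.6% to 84.2%). The p53 KO and WT ranges of this ratio did not overlap under either treatment.

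HSPD1 (ENSG00000144381, chromosome 2, 197486581 to 197516737) and HSPE1 (ENSG00000115541, chromosome 2, 197499994 to 197503457) form the chaperonin of the mitochondrial matrix. HSPD1 stood at 1807, 1856, 1945 and 1801 CPM in p53 KO GCN2iB, against 1746, 1644, 1661 and 1593 CPM in p53 KO vehicle. In WT GCN2iB it was at 1560.1, 1436, 1549.6 and 1570.0 CPM, against 1599, 1422, 1452 and 1462 CPM in WT vehicle. The p53 KO GCN2iB libraries lay above all 12 others. The rise in p53 KO cells was small (1.11-fold, log2 0.16, SE 0.05, adjusted p = 0.0459) and was lost when any of 6 of the 8 libraries was left out, namely each except p53 KO vehicle replicate 1 and p53 KO GCN2iB replicate 4, with adjusted p up to 0.132. In WT cells its log2 ratio was 0.04 (95% interval -0.06 to 0.15, adjusted p = 0.613). HSPE1, at 33.5 to 43.9 CPM in p53 KO GCN2iB against 29.3 to 30.5 CPM in p53 KO vehicle, rose 1.26-fold (log2 0.33, SE 0.08, adjusted p = 0.00681). In WT GCN2iB it ranged from 28.5 to 33.8 CPM, against 25.1 to 31.9 CPM in WT vehicle (log2 0.14, SE 0.09, adjusted p = 0.254), and without WT vehicle replicate 4 the adjusted p was 0.0481.

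**Figure D2:**
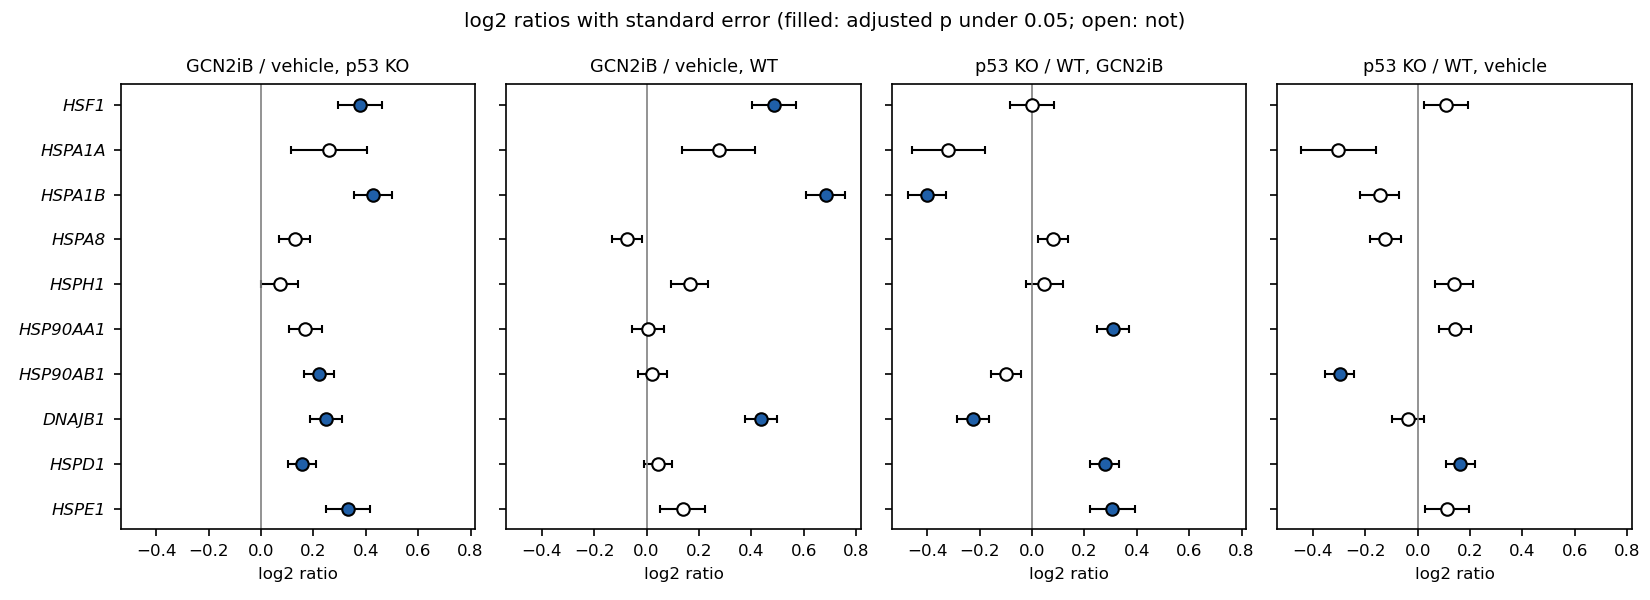
Log2 ratios (x axis) of the 10 genes in 4 comparisons, with bars of 1 SE and filled points where the adjusted p was under 0.05. In p53 KO cells all 10 ratios under GCN2iB lie right of 0, and HSPA1B reaches 0.43 there and 0.68 in WT cells.

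Whether the response to GCN2iB differed between the genotypes was asked with the interaction, the log2 response in p53 KO cells minus that in WT cells. None of the 10 genes passed this test, and over all genes 1 did (0.00539%). At an unadjusted p under 0.05, 4 of the 10 members and 1754 of the 18549 genes stood. Of these, HSPA1B (-0.26, SE 0.10, edgeR adjusted p = 0.456) and DNAJB1 (-0.19, SE 0.08, edgeR adjusted p = 0.502) had negative values. HSPA8 and HSP90AB1 had positive ones (0.20, SE 0.08, edgeR adjusted p = 0.445 for each). The count of 6 members called in p53 KO cells against 3 in WT cells is thus not shown to be a difference between the genotypes. The DESeq2 and limma voom tests called 0 members as well. The 95% interval for HSPD1 ran from -0.04 to 0.27 and for HSP90AA1 from -0.01 to 0.34. Both responses are computed from separate libraries, but the p53 KO to WT ratios below use the same 16 libraries as the ratios above.

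Comparing p53 KO with WT cells asks how the chaperones differed between the edited and the wild-type cells under each treatment. Loss of p53 and other differences between these cells cannot be told apart here. Under GCN2iB 3 members rose, HSP90AA1, HSPD1 and HSPE1, and 2 fell, HSPA1B and DNAJB1, where 12.7% of all genes rose and 11.2% fell (23.9% called). Under vehicle 1 rose, HSPD1, and 1 fell, HSP90AB1, where 9.63% of all genes rose and 12.1% fell (21.7% called). The 2 of 10 members called under vehicle are near the background share. The members' median log2 ratios, 0.02 under GCN2iB and 0.04 under vehicle, lay beside 0.03 and 0.01 for all genes. With library totals as the only scaling the called genes under vehicle split into 2467 higher and 1593 lower, against 1787 higher and 2238 lower in the reported fit. HSP90AA1 was 1.24-fold higher in p53 KO cells under GCN2iB (log2 0.31, SE 0.06, adjusted p = 0.000771), with no overlap between the groups, and had a log2 ratio of 0.14 under vehicle (adjusted p = 0.105, and 0.0430 without WT vehicle replicate 1). HSPD1 was 1.21-fold higher under GCN2iB (log2 0.28, SE 0.05, adjusted p = 0.000697) and 1.12-fold higher under vehicle (log2 0.16, SE 0.05, adjusted p = 0.0357). The call under vehicle was lost when any of 6 of the 8 libraries was left out, namely each except WT vehicle replicate 1 and p53 KO vehicle replicate 4, with adjusted p up to 0.124. HSPE1 was 1.24-fold higher under GCN2iB (log2 0.31, SE 0.08, adjusted p = 0.0100), but its adjusted p was 0.0621 without WT GCN2iB replicate 3 and 0.0518 without WT GCN2iB replicate 4. Without WT GCN2iB replicate 4, 2 members rose and 2 fell under GCN2iB, where 21.3% of all genes were called. HSP90AB1 fell 1.23-fold in p53 KO cells under vehicle (log2 -0.30, SE 0.06, adjusted p = 0.000384), and under GCN2iB its log2 ratio was -0.10 (95% interval -0.21 to 0.01, adjusted p = 0.214).

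HSPA1A, HSPA1B and HSP90AB1 lie on the short arm of chromosome 6, and genes around them were mostly lower in p53 KO than in WT cells. For scale, 11.2% of all 18549 tested genes fell under GCN2iB and 12.1% under vehicle, a share taken without the 10 CPM limit used below. Of the 17 other genes within 1 Mb of HSP90AB1 with a mean of at least 10 CPM, 9 fell and 0 rose under GCN2iB and 13 fell and 0 rose under vehicle, with median log2 ratios of -0.26 and -0.36. The ratios of HSP90AB1 itself, -0.10 and -0.30, were nearer to 0 than these medians. Its neighbours that fell included TMEM63B at -0.54 under GCN2iB and -0.67 under vehicle, which was chosen after its values were seen. Around HSPA1A, 15 of 30 such genes fell and 0 rose under GCN2iB, and 18 fell and 0 rose under vehicle, with medians of -0.24 and -0.26. Members aside, the nearest called neighbours of HSPA1A were HSPA1L, VARS1 and VWA7 under vehicle and HSPA1L, SNHG32 and VARS1 under GCN2iB. HSPA1L, a testis-enriched HSP70, had log2 ratios of -0.34 under GCN2iB and -0.62 under vehicle. VARS1, the valine tRNA synthetase gene, had log2 ratios of -0.42 and -0.40 there. Around the other members the median of the neighbours lay between -0.12 and 0.17 under GCN2iB and between -0.06 and 0.14 under vehicle. The ratio of HSPA1B was -0.40 under GCN2iB, where the median of its 31 neighbours was -0.23, and -0.15 under vehicle, where that median was -0.27. The part of the region in the members' ratios was not tested.

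**Figure D3:**
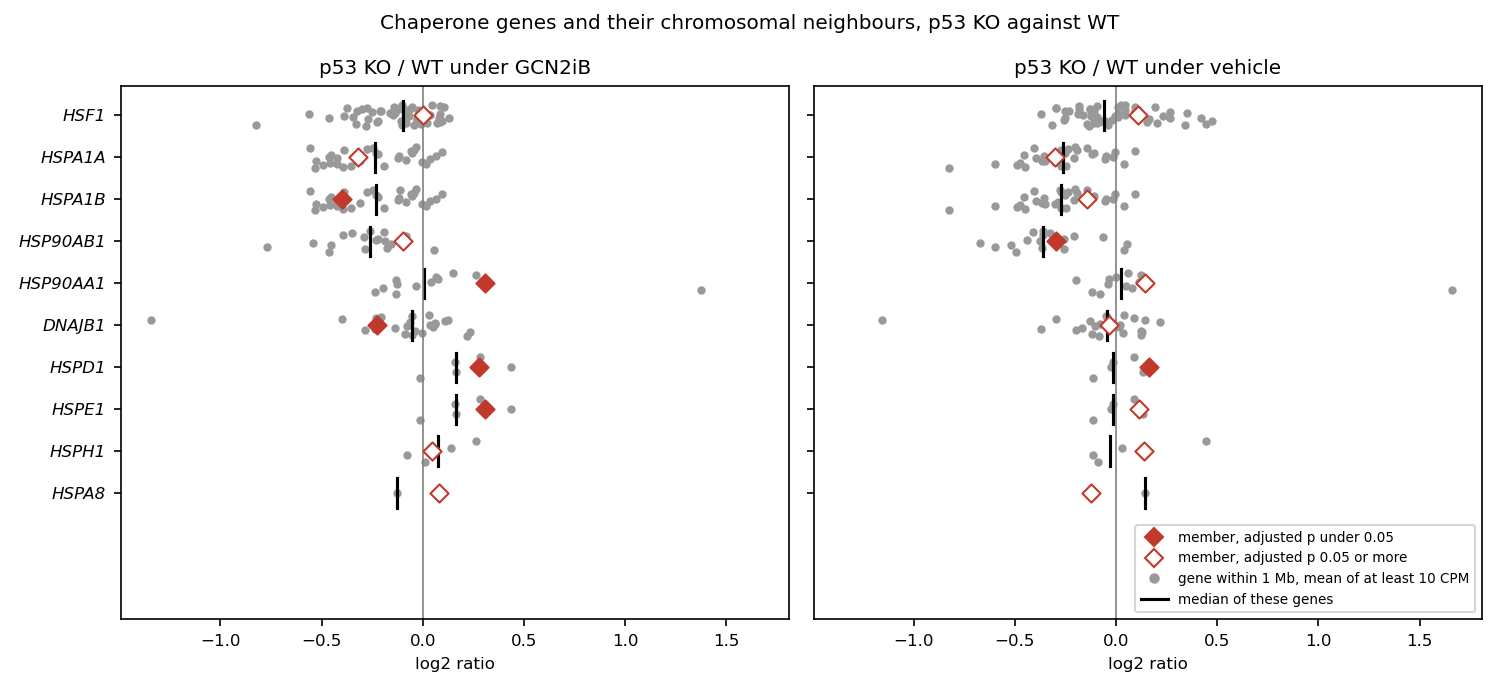
Log2 ratio of p53 KO to WT (x axis) for each gene (diamonds, filled where the adjusted p was under 0.05) and for genes within 1 Mb of it with a mean of at least 10 CPM (grey points, with their median as a bar), under GCN2iB on the left and vehicle on the right. The neighbours of HSPA1A, HSPA1B and HSP90AB1 lie mostly left of 0, with medians from -0.36 to -0.23.

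The members did not vary as 1 group between libraries. After the group means were removed, 24 of the 45 pairs of members had a negative Pearson r over the 16 libraries and 10 had an r above 0.5. HSP90AA1 and HSPD1 followed each other most closely (r = 0.94), then HSPA8 and HSP90AB1 (r = 0.86). HSF1 ran opposite to HSPD1 (r = -0.90) and to HSP90AA1 (r = -0.88), while it went with DNAJB1 at r = 0.60 and with HSPA1B at r = 0.14. HSPA1A and HSPA1B stood at r = -0.08 and HSPD1 and HSPE1 at r = -0.30. Large values are common in these libraries. The r of HSF1 with all genes of at least 10 CPM ran from -0.82 at the 5th percentile to 0.86 at the 95th. These percentiles were -0.79 and 0.78 for HSP90AA1, -0.77 and 0.75 for HSPD1, -0.59 and 0.62 for HSPA8, and -0.59 and 0.60 for HSP90AB1. The r values of HSP90AA1 with HSPD1, HSPA8 with HSP90AB1, and HSF1 with HSPD1 and HSP90AA1 lay outside these ranges. The GC content of the longest transcript was 64.7% for HSF1, 45.2% for HSP90AA1, 44.2% for HSPD1 and 40.0% for HSPH1, and its part in these correlations was not tested. When smooth trends on GC content and length were removed from each library, an alternative added after seeing the data, HSF1 rose in p53 KO cells relative to WT under GCN2iB (log2 0.17, adjusted p = 0.00235) and under vehicle (log2 0.17, adjusted p = 0.00167), so its genotype ratio depends on this step. Over all 16 libraries, group differences included, the genes most like HSP90AA1 among 9572 compared were HSPD1 (r = 0.98) and PPP2R5C (r = 0.97). Those most like HSPD1 were HSP90AA1 and TERF1 (r = 0.96). For HSPA1B they were CLK3 (r = 0.97) and ZBTB12 (r = 0.96), which lies in the same block of chromosome 6. For HSF1 they were CHTF18 and PGP (r = 0.98 each), for DNAJB1 GLOD4 and HNRNPAB (r = 0.97 each), and for HSP90AB1 UGT2B11 (r = 0.97) and LIN7A (r = 0.95). HSPA8 was most like SF3B3 (r = 0.89) and XRCC5 (r = 0.82), HSPH1 like FAM76B and BCLAF1 (r = 0.91 each), HSPE1 like AK6 (r = 0.93) and RPS15A (r = 0.92), and HSPA1A like TUSC1 and EDC3 (r = 0.91 each).

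The partners of these chaperones were examined as lists, whose counts are to be read beside the shares of all genes. With GCN2iB, 11.4% of all genes rose and 8.71% fell in p53 KO cells (20.1% called). In WT cells 11.6% rose and 13.6% fell (25.2% called). Without WT GCN2iB replicate 4, 19.3% were called for GCN2iB in WT cells and 21.3% for p53 KO against WT under GCN2iB. Among 18 HSP70 co-chaperones GCN2iB raised 8 in p53 KO cells and 5 in WT cells and lowered none. The 5 of 18 in WT cells are near the share of all genes called there, while all 5 rose. With library totals as the only scaling 4 rose and 1 fell in each genotype, and without WT GCN2iB replicate 4, 6 rose and 0 fell in WT cells. HSPBP1, an exchange factor of HSP70, averaged 106 ± 16.7 CPM in p53 KO GCN2iB against 72.4 ± 7.10 CPM in p53 KO vehicle (log2 0.55, adjusted p = 0.000219), and 112 ± 9.04 CPM in WT GCN2iB against 75.01 ± 6.10 CPM in WT vehicle (log2 0.58, adjusted p = 0.000105). STUB1, the ubiquitin ligase CHIP that acts on HSP70 clients, rose as well (log2 0.53 in p53 KO cells and 0.69 in WT cells), as did the J protein genes DNAJA1 (log2 0.27 in p53 KO cells and 0.22 in WT cells) and DNAJB4 (log2 0.33 in p53 KO cells and 0.44 in WT cells). The list's median log2 ratio was 0.18 in p53 KO cells and 0.14 in WT cells. Of 14 HSP90 co-chaperones, 8 rose and 1 fell in p53 KO cells and 7 rose and 1 fell in WT cells, with medians of 0.23 and 0.22. With library totals as the only scaling, 6 rose and 1 fell in p53 KO cells and 7 rose and 1 fell in WT cells. CACYBP rose in both (log2 0.34 in p53 KO cells and 0.39 in WT cells), as did the phosphatase gene PPP5C (log2 0.34 and 0.30). PTGES3, the p23 co-chaperone (log2 0.34 in p53 KO cells and 0.21 in WT cells), and AHSA1, the activator of the HSP90 ATPase (log2 0.29 and 0.28), rose in both too.

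The cytosolic chaperonin TRiC and its partner prefoldin fold actin and tubulin. Of their 14 genes GCN2iB raised 11 in p53 KO cells and 4 in WT cells and lowered none, with medians of 0.26 and 0.12, and library totals as the only scaling gave 7 in p53 KO cells. The share of all genes called was 20.1% in p53 KO cells and 25.2% in WT cells, so the 4 of 14 in WT cells are near it, while all 4 rose. CCT3 stood at 801 ± 21.6 CPM in p53 KO GCN2iB against 603 ± 27.9 CPM in p53 KO vehicle (log2 0.41, adjusted p = 1.27e-05), and at 815 ± 37.6 CPM in WT GCN2iB against 720 ± 29.6 CPM in WT vehicle (log2 0.18, adjusted p = 0.0187). PFDN2, a prefoldin subunit, rose by a log2 ratio of 0.82 in p53 KO cells and 0.90 in WT cells, CCT5 by 0.33 in p53 KO cells and 0.14 in WT cells, and PFDN6 by 0.39 in p53 KO cells and 0.48 in WT cells. The interaction called 0 of the 14, and 0 in each other list. Under vehicle CCT2 (log2 -0.30), CCT3 (log2 -0.26) and CCT5 (log2 -0.18) were lower in p53 KO than in WT cells, 3 of 14 falling and 1 rising, or 2 falling and 2 rising with library totals as the only scaling. Under GCN2iB 3 rose and 0 fell in that comparison, PFDN4 (log2 0.36), VBP1 (log2 0.26) and PFDN1 (log2 0.20), or 2 and 0 without WT GCN2iB replicate 4. Between the genotypes 23.9% of all genes were called under GCN2iB and 21.7% under vehicle, so the 3 of 14 under GCN2iB are near the background share.

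The other mitochondrial chaperones, import motor parts and proteases did not move one way. Of 17 genes, 5 rose and 1 fell with GCN2iB in p53 KO cells and 5 rose and 4 fell in WT cells, with medians of 0.06 and -0.04, while library totals as the only scaling gave 4 rising and 4 falling in each genotype. Without WT GCN2iB replicate 4, 4 rose and 2 fell in WT cells. The background shares were 11.4% of all genes rising and 8.71% falling in p53 KO cells, and 11.6% and 13.6% in WT cells. HSPA9, the mitochondrial HSP70, fell in both, to 483 ± 26.0 CPM in p53 KO GCN2iB against 559 ± 13.7 CPM in p53 KO vehicle (log2 -0.21, adjusted p = 0.00653), and to 435 ± 12.3 CPM in WT GCN2iB against 536 ± 19.3 CPM in WT vehicle (log2 -0.30, adjusted p = 0.000253). Its exchange factor gene GRPEL1 rose in both (log2 0.34 and 0.33), as did TIMM44, which holds HSPA9 at the import channel (log2 0.28 in p53 KO cells and 0.20 in WT cells). The paralogue GRPEL2 fell in WT cells (log2 -0.43) and had a log2 ratio of -0.19 in p53 KO cells (adjusted p = 0.0613). TRAP1, the mitochondrial HSP90, was lower in p53 KO than in WT cells under GCN2iB (log2 -0.22, adjusted p = 0.0142) and under vehicle (log2 -0.34, adjusted p = 0.000354). Under vehicle CLPX (log2 -0.28) fell too, and under GCN2iB GRPEL2 (log2 0.32) and HSCB (log2 0.43) were higher in p53 KO cells.

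Among 7 other HSP70 family genes none rose with GCN2iB, while 2 fell in p53 KO cells and 4 in WT cells, or 2 without WT GCN2iB replicate 4. With GCN2iB 20.1% of all genes were called in p53 KO cells and 25.2% in WT cells. HSPA13, a microsomal HSP70, fell in p53 KO cells (log2 -0.43) and in WT cells (log2 -0.51), as did HSPA12A (log2 -0.32 and -0.26), and HSPA14 fell in WT cells (log2 -0.29) and had a log2 ratio of 0.15 in p53 KO cells (adjusted p = 0.227). Between genotypes HSPA13 was higher in p53 KO than in WT cells under both treatments (log2 0.51 under GCN2iB and 0.43 under vehicle), and HSPA14 was higher under GCN2iB (log2 0.48). Of 10 small heat shock proteins 5 passed the count filter, and HSPB1, which encodes HSP27, rose alone, at 699 ± 132 CPM in p53 KO GCN2iB against 534 ± 56.5 CPM in p53 KO vehicle (log2 0.39, adjusted p = 0.0112), and at 677 ± 38.1 CPM in WT GCN2iB against 484 ± 50.1 CPM in WT vehicle (log2 0.48, adjusted p = 0.00185). Of 6 tested HSF family members and HSF1 regulators, HSF2 rose in p53 KO cells (24.9 ± 2.01 CPM in p53 KO GCN2iB against 18.1 ± 0.531 CPM in p53 KO vehicle, log2 0.45, adjusted p = 0.000123). HSBP1, a small protein that binds HSF1 trimers, fell in WT cells (log2 -0.24, adjusted p = 0.0453), a call that DESeq2 size factors did not give, and both it (log2 0.46) and HSF2 (log2 0.33) were higher in p53 KO than in WT cells under GCN2iB. Between p53 KO and WT cells, the HSP70 co-chaperones had 3 genes that rose and 3 that fell under GCN2iB (2 and 2 without WT GCN2iB replicate 4), and 1 that rose and 3 that fell under vehicle, or 2 and 2 with library totals as the only scaling. In this comparison 23.9% of all genes were called under GCN2iB and 21.7% under vehicle, and the list's total under vehicle is near that share. HSPA4L fell (log2 -0.39 under GCN2iB and -0.41 under vehicle) and DNAJB4 rose (log2 0.29 and 0.41) under both treatments. DNAJC7 (log2 0.30) and DNAJC2 (log2 0.22) rose under GCN2iB, and BAG2 (log2 -0.46) fell under vehicle. Of the HSP90 co-chaperones 0 rose and 4 fell under GCN2iB and 2 rose and 4 fell under vehicle, with SUGT1 (log2 -0.37 under GCN2iB and -0.36 under vehicle), PPP5C (log2 -0.19 and -0.24), PPID (log2 -0.20 and -0.24) and FKBP4 (log2 -0.18 and -0.23) lower under both. Library totals as the only scaling gave 1 rising and 3 falling under GCN2iB, and 2 rising and 3 falling under vehicle.

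**Figure D4:**
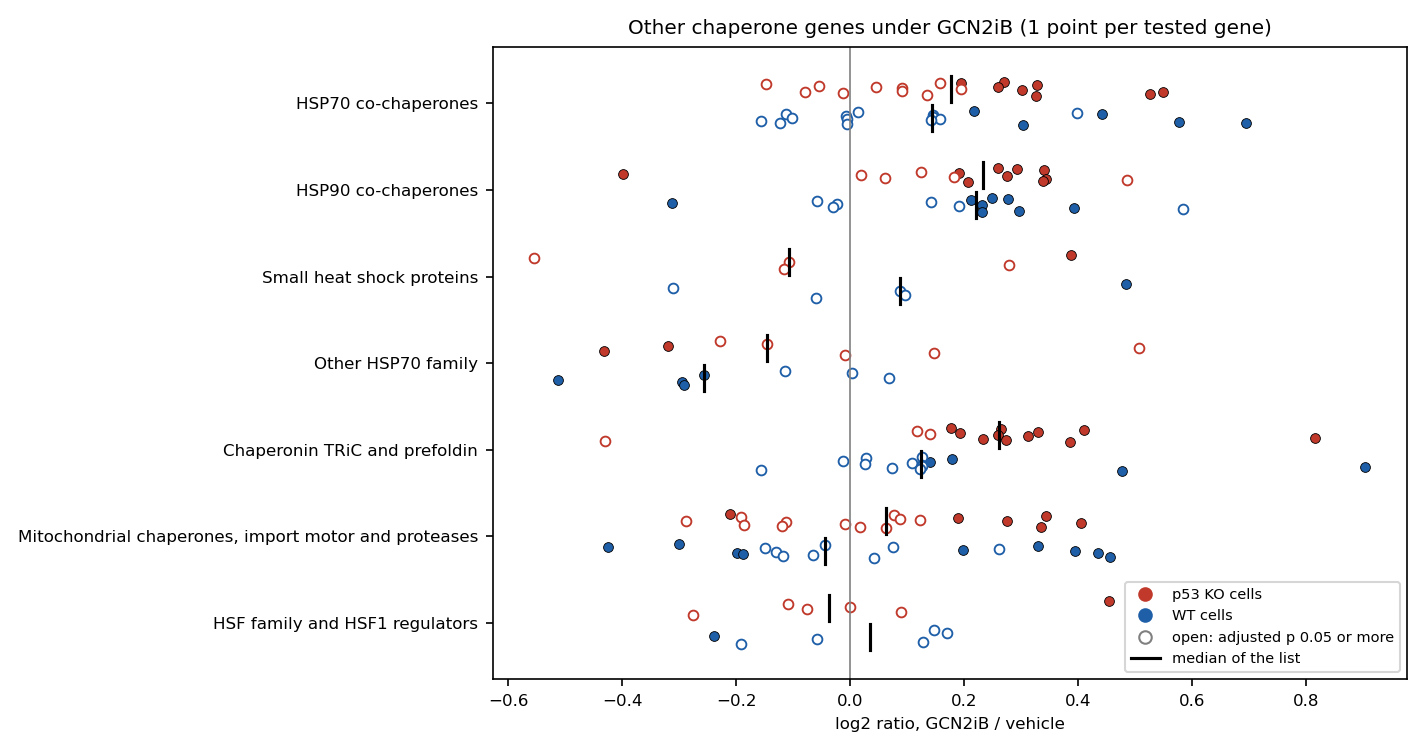
Log2 ratio of GCN2iB to vehicle (x axis) for the tested genes of 7 other chaperone lists (rows), in p53 KO cells (red) and WT cells (blue), filled where the adjusted p was under 0.05, with the list's median as a black bar. The chaperonin and prefoldin genes lie mostly right of 0, with medians of 0.26 in p53 KO cells and 0.12 in WT cells, and the other HSP70 family genes have medians of -0.15 and -0.26.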

How the data were processed

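RNA from 16 LNCaP libraries was sequenced in paired ends. The deposited table holds raw read counts per gene from the authors, with no normalization, for 62754 Ensembl identifiers. Per the submitters' processing notes, the tools were featureCounts, HISAT2, Trim Galore and DESeq2 on GRCh38. Versions, annotation release and strandedness were not given in the sources used here. Totals ran from 17418072 to 39915685 counts.

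Here, 18549 genes passed filterByExpr and were fitted in R 4.3.3 with edgeR 4.0.16 (quasi-likelihood F test, TMM scaling, robust dispersion, 1 term per group, all 16 libraries), two-sided, with Benjamini-Hochberg adjustment within each of the 5 comparisons. Standard errors were taken as |log2 ratio| over the square root of F. The code was tested on simulated data with the 18232 genes of the WT GCN2iB comparison, where 56.7% of changes of 1.25-fold and 95.5% of changes of 1.5-fold were recovered. The simulation changed 67 genes by each of these sizes and drew the counts of each gene independently. In the data 4677 genes were called and libraries varied together, so these rates may not carry over. Alternatives covered the scaling, the count filter, the test (DESeq2 1.42.0, limma 3.58.1 voom), the groups fitted, a replicate block, libraries left out, and the sum of HSPA1A and HSPA1B. Trends on GC content and length, and the lists' counts under other scalings or without replicate 4, were added after seeing the data. Python 3.11.15 (pandas 2.3.3, matplotlib 3.10.9) served for summaries and figures. Positions and exon lengths come from GENCODE release 29, and promoters from RefSeq on GRCh38.p14. Symbols matched 42343 identifiers.

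The members and lists were chosen with earlier results of these data known. Named genes are the 10 members, up to 3 called genes with the smallest adjusted p per list and comparison, the 2 genes most like each member (Pearson r of log2 CPM, mean of at least 10 CPM), up to 3 called genes nearest to HSPA1A, and CDKN1A and CHAC1 as checks of the labels.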

Additional observations from a re-analysis of the deposited data

Results flagged for a closer look

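In 3 of the 40 sets of 4 libraries (10 genes in 4 groups) 1 library lay far from the other 3, where chance gives about 1 in 20. HSPA1B was highest in p53 KO vehicle replicate 3, at 81.8 CPM, where the other 3 libraries lay between 71.4 and 72.8 CPM. HSPD1 was lowest in WT GCN2iB replicate 2, at 1436 CPM, where the others lay between 1549.6 and 1570.0 CPM. HSF1 was lowest in WT vehicle replicate 1, at 99.5 CPM, where the others lay between 125 and 129 CPM. Without that library HSF1 still rose with GCN2iB in WT cells, the log2 ratio staying between 0.42 and 0.54 over all 8 omissions.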

How the results depend on the processing

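Of 1020 member values under other settings 952 kept their direction and their side of the threshold, 22 calls were lost, 25 were gained and 21 values changed sign, 0 of which had been called. Where HSPA1A and HSPA1B were added, the sum stood for each of these genes. The calls gained for HSPA1A in that setting are therefore calls of the sum. HSF1, HSPA1B and DNAJB1 rose with GCN2iB in both genotypes under every setting run. Library totals as the only scaling turned small log2 ratios of GCN2iB in WT cells to -0.0276 for HSP90AA1 and -0.00923 for HSP90AB1, of p53 KO under vehicle to 0.0213 for DNAJB1, and of p53 KO under GCN2iB to 0.0157 for HSF1. A mean of at least 50 counts gave 0.000108 for DNAJB1 under vehicle and limma voom 5.54e-05 for HSF1 under GCN2iB. Removing GC and length trends gave 0.166 for HSF1 and -0.0053 for HSPH1 in p53 KO against WT under GCN2iB. Without replicate 4 of GCN2iB in both genotypes HSP90AA1 in WT cells stood at -0.00167. Leaving out 1 library at a time gave ranges that cross 0 for HSP90AA1 (-0.00671 to 0.0592) and HSP90AB1 (-0.0199 to 0.0645) under GCN2iB in WT cells, for HSPA1A in the interaction (-0.141 to 0.0297), and for HSF1 (-0.0462 to 0.0222) and HSPH1 (-0.018 to 0.0884) in p53 KO against WT under GCN2iB.

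Members called in p53 KO against WT under vehicle numbered 2, where 21.7% of all genes were called. They numbered 1 with no count filter (9.75% of all genes) and 1 when only the compared groups were fitted (20.5%). After removal of GC and length trends they numbered 5 (31.4%), and with 1 library left out 1 to 3 (16.6% to 22.2%). Genes called in the interaction numbered 1, but 2 with DESeq2 size factors, 4 with library totals, 47 with no count filter, 6 with a mean of at least 50 counts, 38 with DESeq2, 61 with the replicate block, 6 without replicate 4 of GCN2iB, 14 after removal of GC and length trends, and 1 to 34 with 1 library left out, the most without WT GCN2iB replicate 1. The cause was not tested. The members called in the interaction numbered 0 under each setting, the fit of only the compared groups giving no interaction.

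The labels name no pairing of replicate numbers, so the reported fit did not pair them. The library residuals of equal replicate number nevertheless correlated above 0.1 in 15 of 24 pairs, and in 3 of 4 pairs of each comparison. Their median r was 0.136 (highest 0.747), against -0.0647 for pairs of other numbers. Libraries of equal number may thus share structure that the reported fit leaves out, and its source was not tested. With the replicate block 6139 genes (33.1%) were called for GCN2iB in WT cells, 5301 (28.6%) in p53 KO cells, 5203 (28.1%) for p53 KO under vehicle and 5775 (31.1%) under GCN2iB, and 4, 7, 3 and 5 members. Removal of GC and length trends gave 4, 8, 5 and 7 members, where 32.8%, 29.5%, 31.4% and 32.4% of 17678 genes were called. Depth limits HSPA1A most, with 41 to 113 counts per library.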
